A study of Mus musculus with 4 samples.

Results

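The cells described here are plaque cells in which no transcript of the Confetti lineage reporter was counted. A cell was taken as reporter-negative when all 4 reporter rows of the expression table, mCereulean-cDNA, hrGFP-cDNA, EYFP-cDNA and tdimer2-12-cDNA, stood at 0, and as reporter-positive when at least 1 of them was above 0. By this rule 383 of the 2431 plaque cells were reporter-negative, of 12790 cells in the whole series. The members were chosen by these reporter counts, so they are given as a description, and the comparisons concern the other genes.

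Confetti is a recombination reporter in the Rosa26 locus. After tamoxifen activates a Cre recombinase, the cassette rearranges and the cell and its progeny transcribe 1 fluorescent protein gene, so that Myh11-driven Cre marks vascular smooth muscle cells (VSMCs) and their descendants. In atherosclerosis VSMCs lose contractile proteins such as Acta2 and Myh11, and some take on states rich in extracellular matrix, called fibromyocyte when Tnfrsf11b, Lum and Dcn are high and chondrocytic when cartilage genes such as Sox9 and Col2a1 are on. Fibroblasts of the vessel wall share several of these matrix genes but are not expected to carry a Myh11-driven mark.

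Single cells had been prepared from plaques dissected from the aortic root, the aortic arch and the carotid arteries of high fat diet-fed mice, with 1 library per genotype, 2 libraries in all. Controls were Myh11-CreERt2/Confetti/ApoE-/- (ApoE-/-), and the second genotype, Trf2T188A/ApoE-/-, in addition carried Sm22a-Trf2T188A, a mutant of the telomere-binding protein TRF2 under a minimal Sm22a promoter active in arterial smooth muscle. All animals thus lacked ApoE, were on a C57Bl/6 background and carried the tamoxifen-inducible Cre. The study asked for a higher minimum of detected genes in ApoE-/- than in Trf2T188A/ApoE-/- cells and then kept whole clusters that expressed reporter transcripts, which is how cells at 0 for every reporter row came to be in the tables. Each library was 1 suspension, and the number of animals in it and their age are not given in the labels. The 2 libraries were the only replication of reporter status and differed in genotype. The p-values rest on the spread between these 2 libraries, moderated by sharing it across genes, and cover nothing wider. They held 37869934 and 24064570 unique molecular identifiers (UMIs, 1 per captured transcript) and shared 0 cell barcodes.

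Reporter transcripts were sparse in many of the cells that had them. In the ApoE-/- library 247 of 1502 cells were reporter-negative (16.4%, exact 95% binomial interval 14.6 to 18.4%), and in the Trf2T188A/ApoE-/- library 136 of 929 (14.6%, 12.4 to 17.1%). Just above the threshold, 181 ApoE-/- cells (12.1%) and 92 Trf2T188A/ApoE-/- cells (9.90%) held a single reporter UMI, and 154 and 75 cells held 2. At the other end 824 cells of both libraries held 10 or more. The count per cell therefore fell off without a gap between 0 and 1, and reporter-negative means that no reporter transcript was captured, not that the cassette had not recombined. The intervals cover counting error only.

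**Figure D1:**
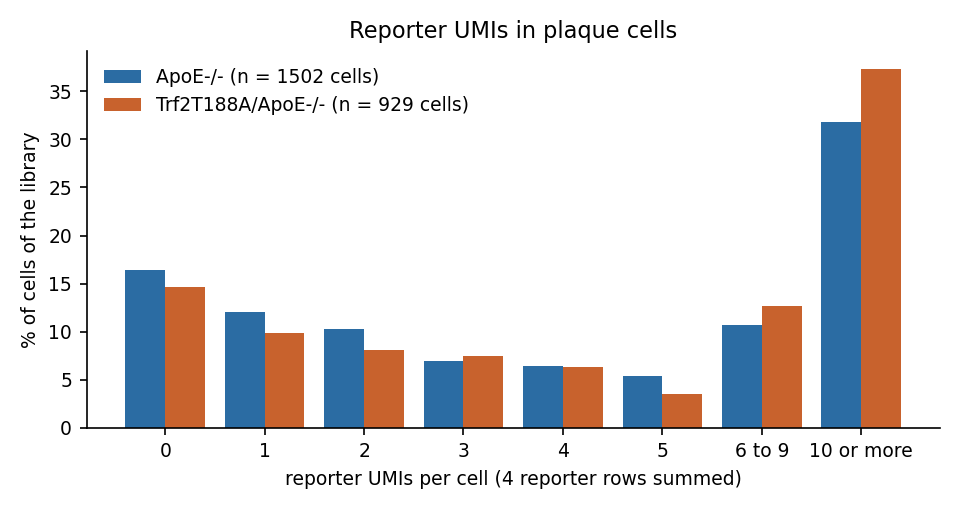
Share of the cells of each plaque library (vertical axis, %) by the number of reporter UMIs per cell summed over the 4 reporter rows (horizontal axis), with 1 bar per library. The bars at 0 are the reporter-negative cells, 16.4% and 14.6%, and the bars at 1 UMI stand next to them at 12.1% and 9.90%.

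Among reporter-positive cells, EYFP-cDNA was found in 752 ApoE-/- and 457 Trf2T188A/ApoE-/- cells, mCereulean-cDNA in 550 and 377, tdimer2-12-cDNA in 322 and 223, and hrGFP-cDNA in 134 and 102. Both mCereulean-cDNA and EYFP-cDNA were above 0 in 462 and 308 cells, whereas every other pair shared at most 21 cells of a library. These are variants of the same jellyfish protein, and how their reads were divided is not given in the sources used here. A read moved between the 4 rows leaves a cell's reporter status as it is.

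Reporter-negative cells were shallower than the others. Median UMIs per cell were 17244 against 23676 in the ApoE-/- library and 14737.5 against 25220 in the Trf2T188A/ApoE-/- library, and median detected genes were 4384 against 5181 and 3900.5 against 5292. Mitochondrial transcripts made up a median of 2.60% against 2.40% and 2.34% against 1.72% of UMIs. In the quartile of cells with the fewest detected genes, 123 of 376 ApoE-/- cells (32.7%) and 70 of 233 Trf2T188A/ApoE-/- cells (30.0%) were reporter-negative, and in the quartile with the most, 8.78% and 9.48%. Depth thus went with the rule in both libraries, and when every cell was thinned to 8000 UMIs the shares were 32.4% and 25.9%, after 92 and 122 shallower cells, 41 and 46 of them reporter-negative, had been left out.

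Depth was not the only measure along which the share varied. Most of the 15 contractile genes are those of the smooth muscle actin and myosin apparatus and its regulators, and the list also holds Des, Pln, Casq2 and Sncg. The summed level of the 15 genes per cell was used to divide each library into quartiles. In the lowest quartile 132 of 376 ApoE-/- cells (35.1%) and 67 of 233 Trf2T188A/ApoE-/- cells (28.8%) were reporter-negative, and in the highest 25 of 376 (6.65%) and 13 of 232 (5.60%). The lowest contractile quartile of the ApoE-/- library was also its deepest, with a median of 27053 UMIs against 21903.5 in the highest, and in the Trf2T188A/ApoE-/- library the medians were 24947 and 25414.5. With every cell thinned to 8000 UMIs the lowest quartile still held the most cells without a reporter UMI, 55.0% and 45.5%, and the highest 19.0% and 18.3%.

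Fibromyocyte genes showed a smaller gradient in the opposite direction. Between the lowest and the highest quartile of their summed level the reporter-negative share was 14.4% and 23.1% in the ApoE-/- library, and 17.2% and 19.8% in the Trf2T188A/ApoE-/- library, where the second quartile was lowest at 9.05%. After thinning the same shares were 26.9% and 45.04%, and 17.3% and 34.2%.

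**Figure D2:**
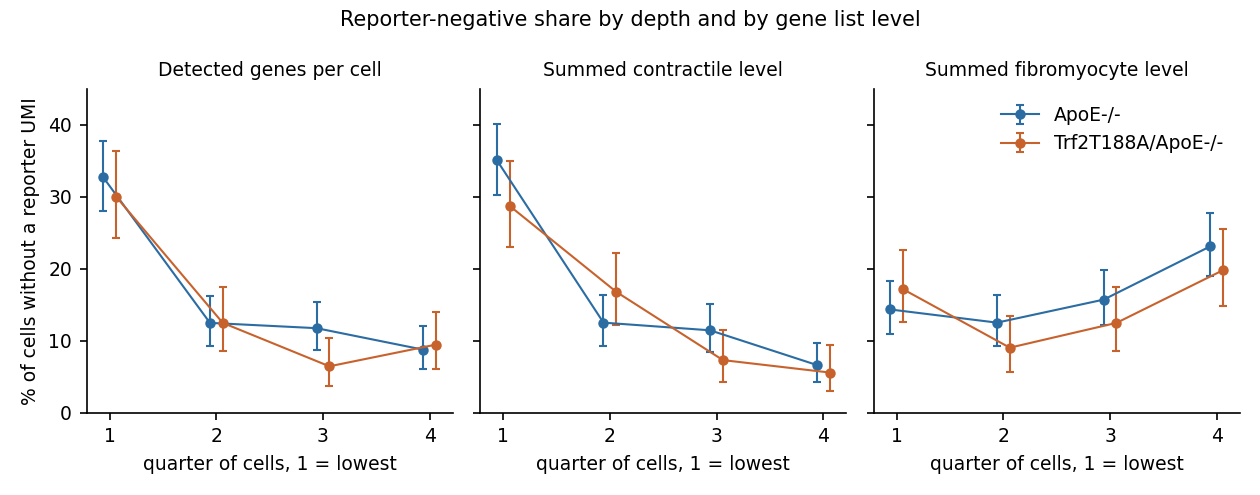
Share of cells without a reporter UMI (vertical axis, %) in 4 equal parts of each plaque library, ordered by detected genes per cell, by summed contractile level and by summed fibromyocyte level (horizontal axis, 1 = lowest). Points are libraries and bars exact 95% binomial intervals, and the left and middle panels fall from 32.7% and 30.0%, and from 35.1% and 28.8%, in the lowest part.

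Clustering without the reporter rows gave 13 clusters, and reporter-negative cells were present in all of them. The names rest on marker lists, and because a cluster is built from the same genes, its shares are a description. The largest number of reporter-negative cells, 66 (17.2%), lay in the fibromyocyte-like cluster 4, led by Timp1, Spp1, Thbs1 and Lum. A further 61 (15.9%) lay in cluster 6, which was led by Ifrd1, Nav2 and Dmd and had the lowest median depth, 8440 UMIs. Another 43 (11.2%) lay in the chondrocyte-like cluster 7, led by Col2a1, Ibsp and Cytl1, and 40 (10.4%) in cluster 5, led by C3, Cp and Lcn2. Contractile-like clusters 0, 3 and 10 together with clusters 1, 2, 8 and 9 held between 10 and 33 reporter-negative cells each.

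As a share of the cluster, 9.45% of ApoE-/- and 7.50% of Trf2T188A/ApoE-/- cells were reporter-negative in contractile-like cluster 0, 8.42% and 7.69% in contractile-like cluster 3, and 15.9% and 13.0% in contractile-like cluster 10. In the shallow cluster 6 they were 32.1% and 35.3%. In fibromyocyte-like cluster 4 the shares were 19.9% and 25.6%, and in cluster 5 they were 22.7% and 19.5%. In chondrocyte-like cluster 7, whose cells had the highest median depth of all clusters at 35062 UMIs, they were 38.3% and 19.0%, and after thinning 66.7% and 40.4%. In the ApoE-/- library the binomial intervals were 14.0 to 26.9% for cluster 4, 27.7 to 49.7% for cluster 7 and 6.15 to 13.7% for cluster 0. In the Trf2T188A/ApoE-/- library they were 18.4 to 33.8%, 10.2 to 30.9% and 3.49 to 13.8%. These intervals cover counting error within each library only, since its cells are not replicates, and differences between clusters were not tested.

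The reporter level of the positive cells also varied between clusters. Its median was 3.26 UMIs per 10000 in ApoE-/- cells and 5.09 in Trf2T188A/ApoE-/- cells of cluster 0, 1.17 and 1.92 in cluster 4, and 0.670 and 1.64 in cluster 7. Level per 10000 and share did not follow 1 order. The shallow cluster 6, with 32.1% and 35.3% of its cells reporter-negative, had medians of 2.80 and 3.67. In the Trf2T188A/ApoE-/- library cluster 7 had a lower level and a smaller reporter-negative share than cluster 4. Without scaling to depth, positive cells of cluster 0 held a median of 7 and 12 reporter UMIs. The medians were 4 and 5 in cluster 4, 3 and 3 in cluster 6, and 3 and 5 in cluster 7. Cells that never recombined and cells whose reporter RNA was too low to be captured cannot be told apart here, and reporter UMIs from RNA free in the suspension could place a cell on the other side of the threshold, which was not tested.

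Only clusters 11 and 12 were mostly reporter-negative. Cluster 11, called fibroblast-like and led by Adamtsl1, Gsn, Tshz2 and C7 with Dpt and Scara5 among its leading genes, had 13 of 21 ApoE-/- cells and the single Trf2T188A/ApoE-/- cell without a reporter UMI. Cluster 12, led by Igfbp3, Gpx3 and Csmd1 and left unnamed, had 13 of 14 cells, all from the ApoE-/- library. Both were small, and they held 27 of the 383 reporter-negative cells.

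**Figure D3:**
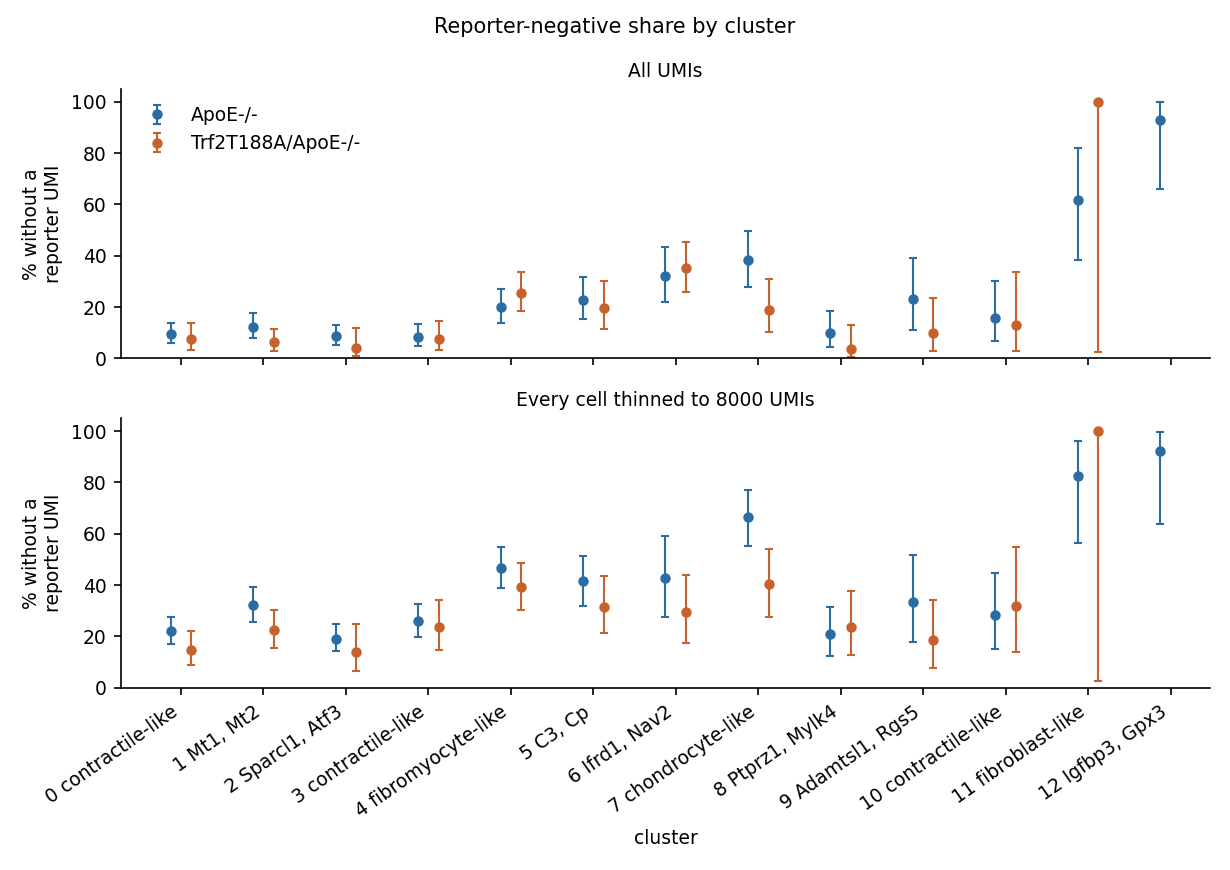
Share of cells without a reporter UMI (vertical axis, %) in each of the 13 clusters (horizontal axis, named or shown with leading genes) with all UMIs above and after thinning every cell to 8000 UMIs below. Points are libraries and bars exact 95% binomial intervals, and cluster 12 stands highest among clusters of the ApoE-/- library, at 92.9% of 14 cells, while the Trf2T188A/ApoE-/- point at 100% in cluster 11 is 1 cell.

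To ask what else distinguished reporter-negative cells, UMIs were summed per library and reporter status and tested gene by gene with edgeR's quasi-likelihood test, with the library as a block and Benjamini-Hochberg adjustment. Since depth entered the rule, the main comparison paired each reporter-negative cell with 1 reporter-positive cell of the same library and like number of detected genes, which brought the medians to 4384 against 4381 and 3900.5 against 3902.5 genes. In this comparison 302 of 12246 genes (2.47%) were higher and 78 (0.637%) lower in reporter-negative cells at an adjusted p under 0.05, or 3.1% in either direction. Without matching, 186 of 15384 genes (1.21%) were higher and 104 (0.676%) lower, or 1.89% in either direction. Levels are means over cells of UMIs per 10000, in which each cell weighs the same, whereas fold changes come from the sums, in which deep cells weigh more. In sums over cells, fewer cells of a type and less RNA per cell cannot be told apart.

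The contractile genes were lower in reporter-negative cells. Of the 14 members tested, 5 fell against matched cells (Actg2, Des, Tpm2, Myl9 and Cnn1), none rose, and the list's median log2 fold change was −0.63, against −0.00 over all genes tested. Over the 12 settings that could be run this median stayed between −0.77 and −0.56, while the number of members called lower ran from 0 to 13. Actg2, enteric smooth muscle actin (GRCm38 chromosome 6, 83512905 to 83536265), averaged 1.14 UMIs per 10000 in reporter-negative and 2.22 in matched ApoE-/- cells, and 0.792 and 2.21 in Trf2T188A/ApoE-/- cells. It was lower in both libraries, by a log2 fold change of −0.94 ± 0.14 (SE; adjusted p = 0.00547 by edgeR, from 0.000122 to 0.114 over 11 alternatives). Myl9, the regulatory light chain of smooth muscle myosin, averaged 16.3 against 30.5 and 11.3 against 24.2 (log2 fold change −0.74 ± 0.16, adjusted p = 0.0398), and Tpm2, a tropomyosin, 17.2 against 31.6 and 11.6 against 22.0 (−0.73 ± 0.16, adjusted p = 0.0396). Of 11 alternatives, 5 called Myl9 and 6 called Tpm2.

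The most abundant members stood at similar ratios without passing the test in the matched comparison. Acta2, smooth muscle α-actin, averaged 62.5 against 125 UMIs per 10000 and 53.7 against 103, with an adjusted p of 0.0884 by edgeR. Tagln, an actin-binding protein of smooth muscle, averaged 49.1 against 92.7 and 37.3 against 70.8, with an adjusted p of 0.0689, and Myh11, smooth muscle myosin heavy chain and the source of the Cre promoter, 19.1 against 30.2 and 16.1 against 20.3, with an adjusted p of 0.0741. Against all reporter-positive cells, 10 of the 14 contractile members fell, these 3 among them, at a list median of −0.77.

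Low contractile levels were not shared by every reporter-negative cell. The median over ApoE-/- cells for Acta2 was 26.04 UMIs per 10000 without and 118 with a reporter UMI after matching, but the levels reached 368 among reporter-negative cells. In the Trf2T188A/ApoE-/- library the medians were 13.9 and 85.2 and the highest reporter-negative cell stood at 367. Myh11 was at 0 in 63 of 247 reporter-negative (25.5%) and 13 of 247 matched (5.26%) ApoE-/- cells, and in 43 of 136 (31.6%) and 15 of 136 (11.03%) Trf2T188A/ApoE-/- cells. At least 4 contractile markers were found in 361 of 383 reporter-negative cells (94.3%) and in 2034 of 2048 reporter-positive cells (99.3%), so nearly all of the reporter-negative cells carried some smooth muscle transcripts, some of which can come from free RNA.

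**Figure D4:**
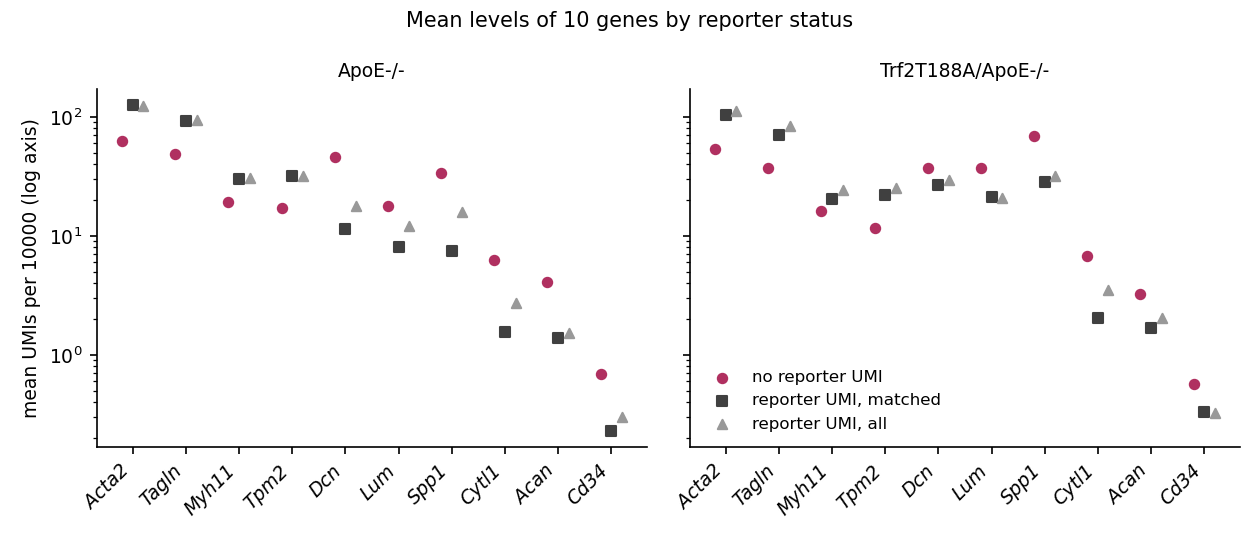
Mean UMIs per 10000 (vertical log axis) of 10 genes in cells without a reporter UMI, in matched cells with one and in all cells with one, in each plaque library. Acta2, Tagln, Myh11 and Tpm2 lie lower, and Dcn, Lum, Spp1, Cytl1, Acan and Cd34 higher, in the reporter-negative cells of both libraries, and Acta2, Tagln, Myh11, Lum and Spp1 did not pass the test against matched cells.

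Fibromyocyte genes lay on the other side. Of 10 members tested, 3 rose against matched cells (Tnfrsf11b, Fmod and Dcn) and none fell, with a median log2 fold change of 0.91 that ranged from 0.68 to 0.99 over 12 settings. In these settings the number called higher ran from 0 to 8. Tnfrsf11b, the decoy receptor osteoprotegerin (chromosome 15, 54250619 to 54278484), averaged 2.52 UMIs per 10000 in reporter-negative and 1.31 in matched ApoE-/- cells, and 5.56 and 1.58 in Trf2T188A/ApoE-/- cells. Its log2 fold change was 0.95 ± 0.14 (adjusted p = 0.00684 by edgeR, from 0.000119 to 0.159 over 11 alternatives). The proteoglycan Dcn averaged 46.1 against 11.5 and 36.8 against 26.9, so its distance was much wider in the ApoE-/- library (log2 fold change 1.38 ± 0.31, adjusted p = 0.0417), and the related Fmod 3.03 against 0.693 and 2.36 against 1.41 (1.53 ± 0.22, adjusted p = 0.00583). Of 11 alternatives, 5 called Dcn and 6 called Fmod. Lum and Fn1, fibronectin, missed the threshold, at adjusted p values of 0.0763 and 0.0525. Against all reporter-positive cells none of the 10 was called and the median was 0.60.

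Cartilage genes gave the largest fold changes of the smooth muscle states, but their size depended on which marked cells they were set against. Of the 11 chondrocyte members tested, 8 rose against matched cells (Sox9, Acan, Col2a1, Chad, Ibsp, Col11a1, Cytl1 and Cnmd) and none fell, with a median log2 fold change of 1.96. Over 12 matched settings between 0 and 10 members were called higher, and at most 1 lower. Sox9, the transcription factor that governs cartilage formation, averaged 1.69 against 0.639 UMIs per 10000 in ApoE-/- cells and 2.17 against 1.41 in Trf2T188A/ApoE-/- cells (log2 fold change 1.19 ± 0.21, adjusted p = 0.0124 by edgeR). The cytokine-like Cytl1 averaged 6.29 against 1.55 and 6.81 against 2.05 (1.96 ± 0.15, adjusted p = 0.000229), and Acan, the cartilage proteoglycan aggrecan, 4.07 against 1.39 and 3.27 against 1.68 (1.25 ± 0.14, adjusted p = 0.00137). All 3 were higher in both libraries.

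The median of the same list was 0.47 against all reporter-positive cells, where none of the 11 passed, 0.48 when cells were matched on UMIs in place of detected genes, and 0.67 with 3 marked cells for each reporter-negative cell. Col2a1, type II collagen, shows the point. It averaged 36.7 UMIs per 10000 in reporter-negative ApoE-/- cells, 14.6 in the matched and 12.7 in all reporter-positive cells, but in the Trf2T188A/ApoE-/- library 9.66 in reporter-negative, 2.35 in matched and 11.1 in all reporter-positive cells. Its adjusted p was 0.000473 against matched cells and ran from 7.93e-19 to 0.959 over 11 alternatives. Ibsp, bone sialoprotein, averaged 39.5 against 1.58 in matched ApoE-/- cells and 7.21 against 4.61 in Trf2T188A/ApoE-/- cells (log2 fold change 3.69 ± 0.63, adjusted p = 0.012). It was called in 4 of 11 alternatives, with log2 fold changes from 0.63 to 4.91 and adjusted p values up to 0.502. Against all reporter-positive cells its log2 fold change was 1.28 (adjusted p = 0.0982 by edgeR), and within clusters 0.07, not called.

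Fibroblast genes were higher as well. Of 10 tested, 5 rose against matched cells (Dpt, Pi16, Cd34, Clec3b and Scara5) and none fell, and 7 rose against all reporter-positive cells. The median log2 fold change was 1.14 in the matched comparison and 0.77 when clusters 11 and 12 were left out. Between 0 and 8 members were called higher over the 12 matched settings. Dpt, the matrix protein dermatopontin (chromosome 1, 164796644 to 164824266), averaged 1.59 against 0.198 UMIs per 10000 in matched ApoE-/- cells and 0.583 against 0.238 in Trf2T188A/ApoE-/- cells (2.48 ± 0.28, adjusted p = 0.00137 by edgeR, from 9.76e-08 to 0.115 over 11 alternatives). Cd34, a surface sialomucin of fibroblasts, endothelium and progenitor cells, averaged 0.685 against 0.231 and 0.567 against 0.329 (1.21 ± 0.15, adjusted p = 0.00244). At least 4 fibroblast markers were found in 126 reporter-negative cells (32.9%) and 581 reporter-positive cells (28.4%), with median depths of 22839 and 29932 UMIs. The 2 libraries went opposite ways, with 36.0% against 25.7% in the ApoE-/- and 27.2% against 32.7% in the Trf2T188A/ApoE-/- library, and a set of these markers was common in marked cells too.

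The 2 mostly reporter-negative clusters carried much of this. The summed fibroblast level was 49.3 UMIs per 10000 in the 13 reporter-negative cells of cluster 11 in the ApoE-/- library and 51.3 in the 13 of cluster 12, against 12.04 over all reporter-negative and 6.33 over all reporter-positive cells of that library. Scara5, a ferritin receptor found on fibroblasts, had 124 UMIs in cluster 11 and 73 in cluster 12 among reporter-negative ApoE-/- cells. In the Trf2T188A/ApoE-/- library, with 1 cell in cluster 11 and none in cluster 12, the summed fibroblast level was 7.28 in reporter-negative and 6.91 in reporter-positive cells.

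**Figure D5:**
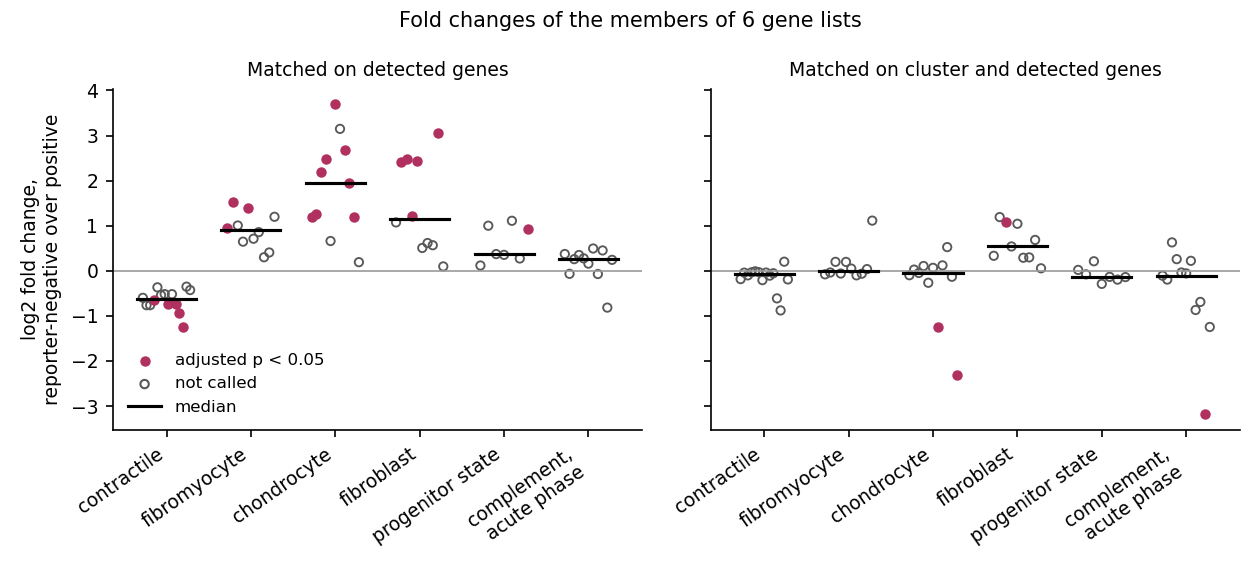
Log2 fold change (vertical axis, reporter-negative over reporter-positive) of each tested member of 6 gene lists, matched on detected genes (left) and on cluster and detected genes (right), with filled points for an adjusted p under 0.05 by edgeR and lines for medians. On the left the contractile median is −0.63 and the fibromyocyte, chondrocyte and fibroblast medians 0.91, 1.96 and 1.14, and on the right they are −0.08, −0.00, −0.05 and 0.54.

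When cells were paired within the same cluster as well, most of these differences were small. This used 230 of 247 ApoE-/- and 135 of 136 Trf2T188A/ApoE-/- reporter-negative cells, 1 pair each. All those left out were in clusters 11 and 12, which held only 8 and 1 reporter-positive cells to pair with. The within-cluster values therefore leave out most of cluster 12 and part of cluster 11. Pairs within clusters were less close in depth in the ApoE-/- library, at median detected genes of 4398 against 4594.5 and median UMIs of 17593 against 19432. In the Trf2T188A/ApoE-/- library the median detected genes were 3897 against 3885. In these pairs 21 of 12245 genes (0.171%) were higher and 8 (0.0653%) lower, or 0.237% in either direction. No contractile and no fibromyocyte member passed, and the list medians were −0.08 and −0.00. Because clusters are formed from the same genes, pairing within them removes part of any difference by construction. Fibroblast genes kept a median of 0.54 with Dpt higher (log2 fold change 1.09 ± 0.16, adjusted p = 0.0212 by edgeR), and 0.28 without clusters 11 and 12. By library, the fibroblast median of the log2 ratio of means plus 1 within clusters was 0.18 in ApoE-/- and −0.02 in Trf2T188A/ApoE-/- cells, and Dpt averaged 0.989 against 0.575 and 0.545 against 0.516. Among chondrocyte genes Chil1, a chitinase-like protein, fell by 2.32 on the log2 scale (adjusted p = 6.71e-05), and Col10a1, the collagen of hypertrophic cartilage, by 1.25 (adjusted p = 0.046). Chil1 had 8244 of its UMIs in 24 of the 51 reporter-positive cells of cluster 7 in the Trf2T188A/ApoE-/- library, where 12 reporter-negative cells were paired 1 to 1.

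Within clusters, 1 of 6 senescence genes and 1 of 11 complement and acute-phase genes fell and none rose, at list medians of −0.28 and −0.11. The neutrophil-attracting chemokine Cxcl1, from the senescence list, fell by 0.88 on the log2 scale (adjusted p = 0.0241 by edgeR), and Saa3, an acute-phase protein, by 3.18 (adjusted p = 0.048). Cxcl2 and Cxcl10 are chemokines that attract neutrophils and T cells and were chosen after their values were seen. Cxcl2 averaged 0.916 UMIs per 10000 in reporter-negative cells and 2.81 in their partners of the same cluster in the ApoE-/- library, and 0.965 and 2.69 in the Trf2T188A/ApoE-/- library. Cxcl10 averaged 0.219 and 0.511, and 0.493 and 0.417, so its mean over cells had no common direction in the 2 libraries. Their log2 fold changes within clusters were −1.60 ± 0.19 and −1.30 ± 0.17, with adjusted p values of 0.00844 and 0.00959.

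Within clusters, Prg4 and Pcdh9 were higher. The means given for them are over all reporter-negative cells and over reporter-positive cells not paired by cluster, so they do not show the within-cluster distance. Prg4, the joint lubricant lubricin, averaged 2.74 UMIs per 10000 in reporter-negative, 1.30 in matched and 1.72 in all reporter-positive ApoE-/- cells, and 11.4, 2.57 and 3.85 in Trf2T188A/ApoE-/- cells. Its log2 fold change was 1.73 ± 0.14 against matched cells (adjusted p = 0.000229 by edgeR) and 0.70 ± 0.12 within clusters (adjusted p = 0.0401). The adhesion protein Pcdh9 (chromosome 14, 93013410 to 93890679), chosen after its values were seen, averaged 1.98, 1.68 and 0.979 in ApoE-/- and 1.91, 0.571 and 0.695 in Trf2T188A/ApoE-/- cells. Its log2 fold change was 0.91 ± 0.13 against matched cells and 0.97 ± 0.13 within clusters (adjusted p = 0.00593 and 0.0111), with UMIs in 155 reporter-negative cells.

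The genes with the largest fold changes in the matched comparison were rare ones. The 10 highest were Brinp3, Car8, Tmem100, Ccnb1, Col25a1, Gm42793, Myct1, Cdkn3, Tnfsf13b and Ibsp, and apart from Ibsp they were found in between 5 and 24 of the 383 reporter-negative cells. Brinp3 (chromosome 1, 146494760 to 146902472), a gene mainly known from neurons, had 78 UMIs in 15 reporter-negative cells and 0 UMIs in 2048 reporter-positive cells, at least 188-fold more per UMI with the limit of 3 UMIs over the reporter-positive cells. Of these UMIs, 68 came from 10 of the 13 reporter-negative cells of cluster 12, and 7 from 2 Trf2T188A/ApoE-/- cells of cluster 6. Car8 had 197 UMIs in only 8 reporter-negative cells, 84 of them in 1 cell, so that its adjusted p of 0.000229 by edgeR rests on very few cells.

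Ifi27l2b, H2ac8, Cdsn, Hist1h2ap, Ppargc1a, Tesc, Myoz2, Des and Fam81a, which were among the 10 lowest, were sparse too, with a mean of at most 0.982 UMIs per 10000 in any group. H2ac8 and Hist1h2ap are histone genes with near-identical copies, and Ifi27l2b has close relatives, so their reads may have been shared and their values are uncertain. Des, the muscle intermediate filament desmin, averaged 0.197 against 0.660 and 0.296 against 0.724 (log2 fold change −1.25 ± 0.29, adjusted p = 0.0486 by edgeR). Ppargc1a, a regulator of mitochondrial biogenesis, averaged 0.0659 against 0.0965 and 0.146 against 0.982, so that the distance lay mainly in the Trf2T188A/ApoE-/- library.

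Csmd1, a large complement-control transmembrane protein, was chosen after its values were seen because it leads cluster 12. It averaged 1.73 UMIs per 10000 in reporter-negative and 0.244 in matched ApoE-/- cells, and 0.620 and 0.433 in Trf2T188A/ApoE-/- cells (log2 fold change 2.59 ± 0.27, adjusted p = 0.00089 by edgeR). Cluster 12 gave 634 of its UMIs, from 10 of 13 reporter-negative cells. A further 338 and 303 came from 8 and 12 reporter-negative cells of fibromyocyte-like cluster 4 in the ApoE-/- and Trf2T188A/ApoE-/- libraries, where 35 of 129 and 24 of 99 reporter-positive cells had Csmd1 UMIs as well. Gpx3, a secreted glutathione peroxidase, had 615 UMIs in all 13 reporter-negative cells of cluster 12.

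Of 7 progenitor-state genes, the metalloproteinase inhibitor Timp1 rose against matched cells (2.96 against 2.06 and 6.33 against 2.93 UMIs per 10000, log2 fold change 0.93 ± 0.13, adjusted p = 0.00408 by edgeR) and the list median was 0.37. Spp1, osteopontin, averaged 34.0 against 7.39 and 69.6 against 28.4 but missed the threshold (1.11 ± 0.35, adjusted p = 0.13). Of 6 senescence genes Cxcl1 fell (−0.52 ± 0.12, adjusted p = 0.048) and none rose, while 5 of the 6 lay above 0 at a median of 0.55, and the mean of Cxcl1 over cells was 2.62 against 3.27 and 3.82 against 3.48. Cdkn2a averaged 0.0281 against 0.0146 and 0.0418 against 0.0377. None of 11 complement and acute-phase genes, 16 digestion-induced genes or 13 mitochondrial genes was called in the matched comparison, and their medians were 0.26, 0.01 and 0.10. Against all reporter-positive cells the heat shock gene Hspa1b was the 1 of 16 digestion-induced genes called, higher in reporter-negative cells.

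Markers of blood-derived and endothelial cells were sparse. The tables hold only clusters that the study kept for reporter expression, so this does not show which unlabelled cells the plaques held. At least 4 myeloid or lymphocyte markers were found in 0 of 383 reporter-negative cells, and in 6 and 1 of 2048 reporter-positive cells. The 0 allows a share of up to 0.783% of the reporter-negative cells kept. Endothelial markers reached that number in 4 reporter-negative (1.04%) and 16 reporter-positive cells (0.781%), and the 4 reporter-negative cells were deep, with a median of 72179.5 UMIs. The summed level of the 12 endothelial markers was 1.74 and 2.09 UMIs per 10000 in reporter-negative and 1.45 and 1.58 in reporter-positive cells of the 2 libraries. Kdr, Tie1 and Cldn5 were at 0 in reporter-negative ApoE-/- cells, and Vwf, Kdr and Tek in Trf2T188A/ApoE-/- cells. Cdh5, called higher without matching, had 25 of 35 reporter-negative UMIs in 1 cell (71.4%), and Emcn, called within clusters, 41 from 1 cell (69.5%). The transcription factor Erg, which rose against matched cells, averaged 1.12 against 0.728 and 1.21 against 0.620, and was the most abundant endothelial marker, ahead of Pecam1 at 0.476 and 0.597 in reporter-negative cells.

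The adhesion selectins Sele and Selp, chosen after their values were seen, were higher within clusters (log2 fold changes 1.65 ± 0.22 and 1.66 ± 0.29, adjusted p = 0.00987 and 0.046 by edgeR), with 106 of the reporter-negative Sele UMIs and 91 of the Selp UMIs in 1 cell each. Cdkn3 and Ccnb1, which act in cell division, were found in 9 and 5 reporter-negative cells, and 5 reporter-negative cells (1.31%) and 22 reporter-positive cells (1.07%) held at least 4 proliferation markers. Of the 9 proliferation genes tested, Ccnb1 and Ube2c rose against matched cells and the list median was a log2 fold change of 1.60, with 8 above 0. Within clusters 2 of 10 rose, Cenpf (3.86 ± 0.42, adjusted p = 0.0054 by edgeR) and Ube2c (3.22 ± 0.38, adjusted p = 0.00844), at a list median of 2.47. These genes were rare, Cenpf with UMIs in 10 and Ube2c in 5 reporter-negative cells, and 63 of the Cenpf and 57 of the Ube2c UMIs came from 1 cell each. Of the remaining lists, S100b, listed as a glial marker, rose against matched cells (0.360 against 0.130 and 0.490 against 0.221 UMIs per 10000, adjusted p = 0.00401 by edgeR) while Sox10 was at 0 in reporter-negative cells, and the lipid-binding Fabp4 fell (1.34 against 2.48 and 0.895 against 1.82, adjusted p = 0.013) while Adipoq and Plin1 were at 0. Of the 2 glial and 2 adipocyte genes tested within clusters, none was called. At least 4 pericyte markers were found in 160 reporter-negative (41.8%) and 1356 reporter-positive cells (66.2%), at median depths of 20697 and 25469 UMIs. No pericyte, cardiomyocyte or epithelial gene was called, and no mesothelial, erythroid or melanocyte gene was abundant enough to test against matched cells. The part of these cells in the results above was not tested.

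The locus that carries the reporter was transcribed in both kinds of cell. Gt(ROSA)26Sor (chromosome 6, 113067428 to 113077333) averaged 0.178 UMIs per 10000 in reporter-negative and 0.300 in matched ApoE-/- cells, and 0.164 and 0.289 in Trf2T188A/ApoE-/- cells, with a log2 fold change of −0.21 ± 0.19 (adjusted p = 0.65 by edgeR). The 2 cells with the most Gt(ROSA)26Sor UMIs were reporter-negative, with 35 UMIs in an ApoE-/- cell of cluster 1 and 23 in a Trf2T188A/ApoE-/- cell of contractile-like cluster 0, and the highest reporter-positive cell held 9. They held 35 of 98 and 23 of 62 reporter-negative UMIs of their libraries. No Gt(ROSA)26Sor UMI was found in 79.4% of reporter-negative and 67.6% of matched ApoE-/- cells, and in 84.6% and 65.4% of Trf2T188A/ApoE-/- cells. Terf2, which encodes TRF2, averaged 0.184 against 0.230 and 0.119 against 0.220 (−0.02 ± 0.20, adjusted p = 0.973). Whether transgene transcripts were counted in this row is not given in the sources used here.

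With 1 library per genotype, the 2 genotypes were set side by side in reporter-negative cells without a test. On the scale of log2 of the mean UMIs per 10000 plus 1, 53 of 10272 genes (0.516%) lay more than 0.5 higher and 43 (0.419%) more than 0.5 lower in Trf2T188A/ApoE-/- cells, and among reporter-positive cells 10 (0.0974%) and 0 (0%). The 10272 genes were those found in at least 10% of the reporter-negative cells of either library. The reporter-negative groups were the smaller ones, 136 and 247 cells. Ranked by the ratio in reporter-negative cells, the 5 highest were Comp, Lcn2, Prg4, Gm13889 and Ecrg4 and the 5 lowest Ibsp, Col2a1, Col11a1, Snorc and Gpx3. Filter and ranking used reporter-negative cells only, which favours smaller ratios in the reporter-positive cells set beside them. Comp, a cartilage oligomeric matrix protein, differed by 1.98 (counting interval 1.88 to 2.08) in reporter-negative and 0.32 (0.29 to 0.36) in reporter-positive cells. Lcn2, an acute-phase lipocalin, differed by 1.79 and 0.86.

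Among the 5 lowest, Ibsp stood at −2.30 (−2.36 to −2.25) in reporter-negative and −0.46 in reporter-positive cells, Col2a1 at −1.82 and −0.18, and Col11a1, a further cartilage collagen, at −1.61 and −0.34. Of the reporter-negative cells, 31 of 247 in the ApoE-/- and 12 of 136 in the Trf2T188A/ApoE-/- library were in chondrocyte-like cluster 7. Gpx3 stood at −1.21 and 0.10, and its main source, cluster 12, had no Trf2T188A/ApoE-/- cell. List medians in reporter-negative and reporter-positive cells were −0.22 and −0.17 for contractile, 0.36 and 0.37 for fibromyocyte −0.19 and 0.26 for chondrocyte genes, of which 4 of 9 were higher in reporter-negative Trf2T188A/ApoE-/- cells, and −0.40 and 0.04 for fibroblast genes, and the fibroblast median was 0.02 once clusters 11 and 12 were left out. The intervals cover counting error only, and the difference between reporter-negative and reporter-positive cells was not tested.

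Call counts were unstable with 1 residual degree of freedom. No gene was called in the matched comparison with 3 reporter-positive cells per reporter-negative cell or without the library block (2186 and 1612 genes at an unadjusted p under 0.05), and DESeq2 called 71 in the main pairing. With 3 per cell the depth was matched less closely, at median detected genes of 4384 against 4660 in ApoE-/- and 3900.5 against 4322.5 in Trf2T188A/ApoE-/- cells. The contractile median was below 0 in every setting run of all 3 comparisons.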

How the data were processed

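Chromium 10x 3' libraries of plaque cells were processed by the authors with Cell Ranger 7.0.0, Seurat 4.3.0 and GRCm38, per the submitters' processing notes, and clusters expressing Confetti transcripts were kept. The deposited values are a linear signal, scaled to 10000 per cell. Every value above 0 was a whole multiple of its cell's smallest unit within 0.01 (100% of values), so UMI counts were recovered and used in place of the deposited signal, and 31765 genes were listed. The ligation libraries are not labelled as carrying Confetti and were not analysed here beyond counting their cells.

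Cells were called reporter-negative at 0 in the 4 reporter rows, which were left out of the variable genes that clustering used and of the library sizes and tests of edgeR. Clusters came from Seurat 5.3.0 (R 4.3.3, 2000 variable genes, 18 principal components, resolution 0.9, libraries not integrated). A cluster was named only with at least 2 markers of a list among its 10 leading genes, a requirement added after the clusters had been seen. Pairs were made by optimal assignment (scipy 1.17.1) on detected genes, 1 to 1, within library, or within library and cluster. UMIs were summed to 4 sums and tested with edgeR 4.0.16 (glmQLFTest, TMM, filterByExpr, library as a block, adjusted p under 0.05), after tests on simulated data. The SE printed with a log2 fold change by edgeR is its absolute value divided by the square root of the F statistic. Genotype ratios used a pseudocount of 1. DESeq2 1.42.0, other filters, matchings, thresholds and depths were alternatives. Scrublet (scanpy 1.11.5) called 0 and 3 cells (0.323%), too few to count as working, so no cell was removed in the main results and the 5% with the highest scores were left out as an alternative.

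Named genes were the 10 highest and 10 lowest called fold changes of the matched comparison with 1 direction in both libraries. Up to 4 of the most abundant and any called members of each list, Gt(ROSA)26Sor and Terf2 were also named. So were the 5 highest and 5 lowest genotype ratios among genes found in at least 10% of the reporter-negative cells of either library. Others are said to be chosen after their values were seen. A gene that met the rule is not reported here. The cells and all lists were chosen with earlier results of these data known. Coordinates are from GENCODE vM21.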

Additional observations from a re-analysis of the deposited data

Results flagged for a closer look

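Comp, cartilage oligomeric matrix protein, went opposite ways in the 2 libraries when cells were paired within clusters. The log2 ratio of reporter-negative over reporter-positive cells was −0.73 in the ApoE-/- and 0.90 in the Trf2T188A/ApoE-/- library, and the difference was not tested. In fibromyocyte-like cluster 4, Comp averaged 0.699 UMIs per 10000 in 32 reporter-negative and 5.21 in 129 reporter-positive ApoE-/- cells, and 26.2 in 34 and 7.78 in 99 Trf2T188A/ApoE-/- cells. In chondrocyte-like cluster 7 it averaged 4.31 and 37.1 in ApoE-/- cells, and 39.0 and 28.7 in Trf2T188A/ApoE-/- cells. In cluster 5, led by C3, Cp and Lcn2, it averaged 11.7 in 25 reporter-negative and 2.22 in 85 reporter-positive ApoE-/- cells, and 3.94 in 15 and 2.86 in 62 Trf2T188A/ApoE-/- cells, so clusters of the ApoE-/- library did not share 1 direction.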

How the results depend on the processing

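Thinning to 8000 UMIs gave reporter-negative shares of 32.4% (ApoE-/-) and 25.9% (Trf2T188A/ApoE-/-), counting 0 or 1 reporter UMI as negative 28.5% and 24.5%, and leaving out cells under 2000 genes 12.2% in the latter. Against all reporter-positive cells the 290 called genes became 584 without cells of 1 reporter UMI, 2023 with no filter on low counts, 752 without clusters 11 and 12, and 45 with no replicate block (library). The share of higher calls went from 64.1% to 40.3% with no filter. In the matched comparison the 380 became 0 with 3 positives per negative cell, 0 with no replicate block, 71 with DESeq2's Wald test, 130 without cells of 1 reporter UMI, 654 with no filter, 198 without clusters 11 and 12, and 239 without the highest doublet scores. Within clusters the 29 became 8 with DESeq2's Wald test, 51 with its size factors, 125 without cells under 2000 genes, 110 without cells of 1 reporter UMI, 190 with no filter, 0 with no replicate block (434 at an unadjusted p under 0.05), 55 without clusters 11 and 12, and 183 without the highest doublet scores.

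Matched list medians that moved were contractile −0.77 (3 positives), −0.68 (cells of 1 reporter UMI out), −0.70 (matched on UMIs) and −0.56 (clusters 11 and 12 out), fibromyocyte 0.68 (3 positives) and 0.70 (UMIs), chondrocyte 0.67 and 0.48 under the same settings, and fibroblast 0.77 (clusters 11 and 12 out), which was 0.51 against all positive cells and 0.28 within clusters. Within clusters fibromyocyte was 0.037 (under 2000 genes out), −0.086 (1 reporter UMI out) and −0.10 (resolution 1.4), and chondrocyte −0.26 (1 reporter UMI out). Matching on UMIs turned the direction of Col25a1 (−0.13), Gm42793 (−0.22), H2ac8 (0.67), Hist1h2ap (0.87), Chil1 (−2.86) and Snorc (−0.33). The 96 genotype ratios beyond 0.5 became 1050 with a pseudocount of 0.1. Genotype medians without clusters 11 and 12 were −0.30 (contractile), 0.22 (fibromyocyte), −0.31 (chondrocyte) and 0.022 (fibroblast, turned), fibroblast was −0.57 with the pseudocount of 0.1, and from mean log values fibroblast and chondrocyte were −0.15 and −0.038. The cause of these changes was not tested.

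Leaving out either library would leave 1 sum per reporter status and no residual degrees of freedom, so it was not run. Reporter status is known only from captured UMIs, cells without it were shallower, and genes found in few cells rest on those cells.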
